A study of Homo sapiens with 6 samples.

Results

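The cytosolic ribosomal protein genes encode the proteins that, with ribosomal RNA, make up the large and the small subunit of the ribosome. They were taken by symbol as the autosomal protein-coding genes named RPL or RPS followed by a digit, with RPLP0, RPLP1, RPLP2 and RPSA, and without the RPS6K kinases and RPS19BP1. This gave 83 of 19974 protein-coding genes, of which 81 were single genes, 50 of the large and 31 of the small subunit. The other 2 were the read-through genes RPS10-NUDT3 and RPL17-C18orf32, which overlap RPS10 and RPL17 and were counted apart. Accessible chromatin had been profiled with ATAC-seq, which uses the transposase Tn5 to tag open DNA with adapters, in KMS-11 cells, a human plasma cell myeloma line labelled WT in genotype. There were 3 ATF4 knockdown libraries (vector and guide label LentiV2_ATF4g3) and 3 control libraries (LentiV2). A single guide label covers the 3 knockdown libraries, and how the guide lowers ATF4 is not stated. The labels call the samples biological replicates and give no batch or date, nor whether cultures were separate. The p-values thus measure the spread between these samples, which for peak height was taken mostly from a trend over all genes.

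Ribosomal protein genes are expressed in every cell and are among the most highly transcribed genes. Their promoters seldom hold a TATA box, and transcription starts at a cytosine within a run of pyrimidines, the TOP motif, through which LARP1 and the kinase mTOR control translation of the messenger RNA. Binding sites of ETS factors such as GABPA, of YY1 and of SP1 have been described in many of them. Plasma cells secrete large amounts of antibody and need many ribosomes, and ATF4 activates genes of amino acid supply when translation initiation is curbed. The comparison of knockdown with control libraries asks whether the accessible DNA at these genes differed when ATF4 was targeted.

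The promoters that the results turn on are printed here from RefSeq on GRCh38.p14, the assembly of hg38. Each run goes 5′ to 3′ on the strand of the gene, from 180 bases before the annotated start through the first 10 transcribed bases. Capitals mark CCGGAAG (ETS family), TATAAA, CGCATGCG (the NRF1 core), the ZBTB33 motif, TGATGNAA (the ATF4 and CEBP element) and TGACGTCA (the cyclic AMP response element) on either strand, and a C then T at the start itself. RPS14, RPL10A and RPL22L1 are shown because their covered length differed most between the groups per unit of error, with a start in the promoter table. RPL34 and RPL21 had the strongest and the weakest start peak of those found in all libraries, and RPL3 was 1 of 2 genes whose start peak was not lower in the knockdown libraries. RPL31 and RPS23 hold the ATF4 and CEBP element, and RPS6 holds the ZBTB33 motif.
RPS14 (chr5:150449730-150449919, minus strand): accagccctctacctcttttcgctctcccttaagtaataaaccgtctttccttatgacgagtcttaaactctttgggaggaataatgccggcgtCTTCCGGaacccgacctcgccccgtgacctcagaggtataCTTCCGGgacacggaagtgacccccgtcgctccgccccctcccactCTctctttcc
RPL10A (chr6:35468221-35468410, plus strand): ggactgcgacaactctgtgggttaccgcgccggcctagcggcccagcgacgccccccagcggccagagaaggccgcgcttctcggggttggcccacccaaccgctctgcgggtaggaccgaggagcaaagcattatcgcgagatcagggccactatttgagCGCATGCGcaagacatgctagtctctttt
RPL22L1 (chr3:170870186-170870375, minus strand): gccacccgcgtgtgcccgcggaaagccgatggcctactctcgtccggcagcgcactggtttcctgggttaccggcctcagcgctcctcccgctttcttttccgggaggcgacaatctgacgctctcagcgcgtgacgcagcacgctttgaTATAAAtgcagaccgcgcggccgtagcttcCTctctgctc
RPL21 (chr13:27251378-27251567, plus strand): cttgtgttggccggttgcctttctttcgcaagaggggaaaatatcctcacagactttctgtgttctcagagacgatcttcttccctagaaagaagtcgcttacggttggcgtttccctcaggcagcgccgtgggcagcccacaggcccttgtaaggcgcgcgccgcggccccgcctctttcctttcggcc
RPL34 (chr4:108620396-108620585, plus strand): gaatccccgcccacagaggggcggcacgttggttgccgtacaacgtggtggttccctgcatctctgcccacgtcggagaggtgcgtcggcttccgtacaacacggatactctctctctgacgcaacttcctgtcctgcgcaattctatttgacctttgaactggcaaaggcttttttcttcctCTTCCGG
RPL3 (chr22:39319614-39319803, minus strand): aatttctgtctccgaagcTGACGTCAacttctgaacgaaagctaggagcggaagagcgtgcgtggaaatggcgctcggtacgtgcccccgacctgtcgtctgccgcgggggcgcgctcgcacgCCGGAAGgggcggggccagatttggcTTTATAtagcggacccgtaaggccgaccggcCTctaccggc
RPL31 (chr2:101002109-101002298, plus strand): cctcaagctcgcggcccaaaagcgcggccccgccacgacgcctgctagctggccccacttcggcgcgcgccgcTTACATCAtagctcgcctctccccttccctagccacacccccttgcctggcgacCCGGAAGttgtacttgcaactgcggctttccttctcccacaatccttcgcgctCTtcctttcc
RPS23 (chr5:82278345-82278534, minus strand): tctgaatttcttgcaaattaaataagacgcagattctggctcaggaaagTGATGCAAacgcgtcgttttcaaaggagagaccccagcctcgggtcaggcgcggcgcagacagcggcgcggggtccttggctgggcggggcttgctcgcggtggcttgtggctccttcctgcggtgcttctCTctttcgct
RPS6 (chr9:19380227-19380416, minus strand): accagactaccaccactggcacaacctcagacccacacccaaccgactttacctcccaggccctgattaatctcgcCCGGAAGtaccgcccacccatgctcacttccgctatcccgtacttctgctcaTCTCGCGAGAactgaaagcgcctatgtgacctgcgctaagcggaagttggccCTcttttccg

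Start sequences were rich in pyrimidine in most ribosomal protein genes, and 2 of 64 promoters held the ATF4 and CEBP element. The promoter table, with 250 bases before and 50 after each start, held 64 of the 81 single genes and 15812 protein-coding genes in all. In 38 of the 64 (59.4%), at least 80% of the 15 bases around the start were C or T, against 7.65% of all promoters, and the median pyrimidine share there was 80% against 53.3%. A C then T at the annotated first base was present in 27 (42.2%, against 6.62%). Among the printed promoters, the share ran from 66.7% in RPL3 to 93.3% in RPS14 and RPS23. In RPL34, at 86.7%, the run of T and C spans the start without a C then T at the first base.

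CCGGAAG, searched on both strands like the other motifs, was in 22 promoters (34.4%, against 14.1% of all promoters). In RPS14 it occurred at 86 and again at 46 bases before the start, both on the other strand. AAGATGG, the YY1 motif, was in 9 (14.1%, against 6.36%). The ZBTB33 motif was in 4 (6.25%, against 0.670%), namely RPL17, RPL26, RPS19 and RPS6, at 65, 49, 49 and 52 bases before the start. The SP1 motif GGGCGG was in 34 (53.1%, against 58.3%). TATAAA was in 7 (10.9%, against 9.75%), and in 6 of them it began between 40 and 20 bases before the start (9.38%, against 4.19%), as in RPL22L1 and RPL3 above.

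The ATF4 and CEBP element TGATGNAA was in RPL31 and RPS23, 3.12% of the 64 against 2.52% of all promoters. It began 107 bases before the start of RPL31 and 131 before that of RPS23. TGACGTCA was in RPL18, RPL3 and RPLP2 (4.69%, against 2.56%), and CGCATGCG in RPL10A alone (1.56%, against 2.90%). None of these motifs contains another. Median GC content was 59.7%, against 62.7% of all promoters, while the observed CpG content over that expected from base composition was 0.905, against 0.762. A match is a run of letters in the window and was not tested as a binding site.

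**Figure D1:**
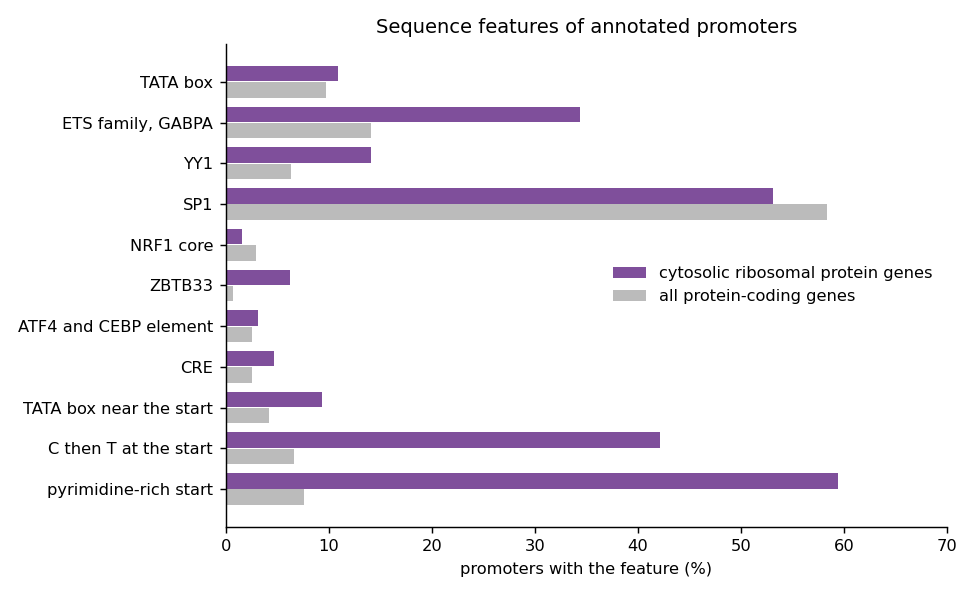
Share of annotated promoters with each sequence feature, in percent, for 64 cytosolic ribosomal protein genes (purple) and all 15812 protein-coding genes of the promoter table (grey). A pyrimidine-rich start was found in 59.4% of the ribosomal protein genes and 7.65% of all genes, and the ATF4 and CEBP element in 3.12% and 2.52%.

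Nearly all ribosomal protein genes had an open start in every library, but their start peaks were of middling rank. A start peak is the listed summit with the highest −log10 q within 1 kb of any annotated start of the gene. It was found in all 6 libraries for 63 of 64 ribosomal protein genes (98.4%), against 10906 of 15812 genes (69.0%), and with −log10 q reaching 10 in every library for 62 (96.9%, against 64.2%). The exception was RPL10L, a retrogene of RPL10 with testis expression, which had a 150 bp and a 155 bp peak in control libraries 2 and 3 and none elsewhere. Within each library the −log10 q was ranked among all start peaks. The median rank of the 63 was the 47.5th percentile, with quartiles at 33.7 and 64.1, and only RPL34 was in the top 10%. The median was 53.4 over all genes, 56.5 over mitochondrial ribosomal protein genes, 38.4 in the large subunit and 53.1 in the small subunit.

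RPL34, a large-subunit protein, had a start peak with −log10 q of 228, 226 and 246 in knockdown libraries 1 to 3, and 496, 511 and 493 in control libraries 1 to 3. The −log10 q is the peak caller's value within 1 list and moves with depth, so the 2 groups are not compared on it. RPL21, also of the large subunit, was weakest, with 8.25, 14.3 and 14.9 in the knockdown libraries and 59.6, 61.7 and 49.98 in the control libraries. Ranked within each library, RPL34 lay between percentiles 92.6 and 97.2 and RPL21 between percentiles 11.4 and 19.9.

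Start peaks of ribosomal protein genes were about as wide as those of other genes, with a median of 1068 bp against 1119 bp. The summit lay a median of 85 bases before the nearest annotated start, against 58.5 for all genes. It moved by a median of 33 bases between libraries, against 32. Larger shifts include 281 bases at RPS14, 323 at RPS27A, 361 at RPLP2 and 491 at RPS19. Heights at these genes thus came from different summits in different libraries. Small nucleolar RNA genes, which guide modification of ribosomal RNA, lay within 27 of the 81 genes, 58 in all. A gene held at most 4, as did RPL13A, RPL23A, RPL3, RPL4 and RPL7A. The 17 of these hosts with a start peak in all libraries ranked at a median percentile of 38.4, and the 46 other genes at 52.1, as a description without a test.

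Within 10 kb of either gene end, 80 of the 81 single genes had a peak with −log10 q of at least 2 in all 6 libraries (98.8%, against 85.1% of all genes), RPL10L being the exception. Among the highest medians over libraries were 424 at RPL41, 370 at RPL34 and 361 at RPL30, and the lowest were 3.01 at RPL10L, 32.4 at RPL21, 54.1 at RPL32 and 54.7 at RPS29. The strongest peak was not always that of the ribosomal protein gene. At RPL41, which encodes a very short protein, it had −log10 q of 304, 275 and 372 in the knockdown and 520, 564 and 476 in the control libraries, and lay nearest an end of ESYT1. For 29 genes the strongest peak of at least 1 library lay more than 1 kb from the annotated start. Where no start was given, the nearer gene end was used. For 27 genes the strongest peak was nearest an end of another gene. Ribosomal protein genes are short, with a median length of 5015 bp against 24170.5 bp for all protein-coding genes. For 66 of the 81, an end of another protein-coding gene lay within 10 kb. The shares over all genes were not computed for the counts of 29, 27 and 66, so these are not read as particular to ribosomal protein genes.

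Start peaks of ribosomal protein genes were lower in the knockdown libraries, by a share close to that of all genes. Height was taken as the pileup of tags at the summit over the background pileup of the library, both recovered from the deposited values. Median heights of the 63 genes were 50.2, 54.0 and 53.8 in knockdown libraries 1 to 3 and 69.9, 75.6 and 68.5 in control libraries 1 to 3, or 52.6 ± 2.12 in the knockdown and 71.3 ± 3.79 in the control group (SD, n = 3 each). All 10906 genes with a start peak in every library had median heights of 56.5 ± 3.93 in the knockdown and 76.2 ± 7.83 in the control group. The median ratio of knockdown to control mean heights was 0.697 for ribosomal protein genes, with quartiles at 0.628 and 0.799, and 0.737 for all genes, with quartiles at 0.666 and 0.818. It was 0.684 in the large subunit, 0.730 in the small subunit and 0.736 in mitochondrial ribosomal protein genes. No set test was run on this difference.

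Mean height was lower in the knockdown libraries for 61 of 63 ribosomal protein genes, as it was for 94.8% of all genes. All 3 knockdown libraries lay below all 3 control libraries for 48 genes (76.2%, against 67.8% of all genes), and all lay above for 0 (against 1.05%). In limma on log2 height over the 10906 genes, 47 of the 63 were called lower in the knockdown libraries at a Benjamini-Hochberg adjusted p of 0.05 (74.6%, against 65.6% of all genes) and 0 higher (against 0.44%). The background of a library scales all of its genes, so an error in it enters the tests of all genes together. In this fit the error of a gene came almost wholly from a trend over all genes, with little weight on its own spread. Small p-values for the height of single genes thus do not rest on the replicates of that gene alone. The background pileup was 2.51, 2.15 and 2.51 in the knockdown and 3.19, 2.79 and 3.52 in the control libraries, and its part in the lower heights was not tested. With the deposited fold over local background in place of height, the median ratio was 0.901 (0.890 for all genes), and 49 of the 63 genes were lower in the knockdown libraries (77.8%, against 84.6%). On that measure limma called 16 lower (25.4%, against 21.1%) and 1 higher, RPL3 (1.59%, against 0.578%). Over the median of all start peaks of a library, the median ratio was 0.939 (0.993 for all genes), and 37 of 63 were lower (58.7%, against 52.1%). Limma then called 7 lower (11.1%, against 6.73%) and 6 higher (9.52%, against 8.98%), so that the number of calls for height depended on the scaling.

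**Figure D2:**
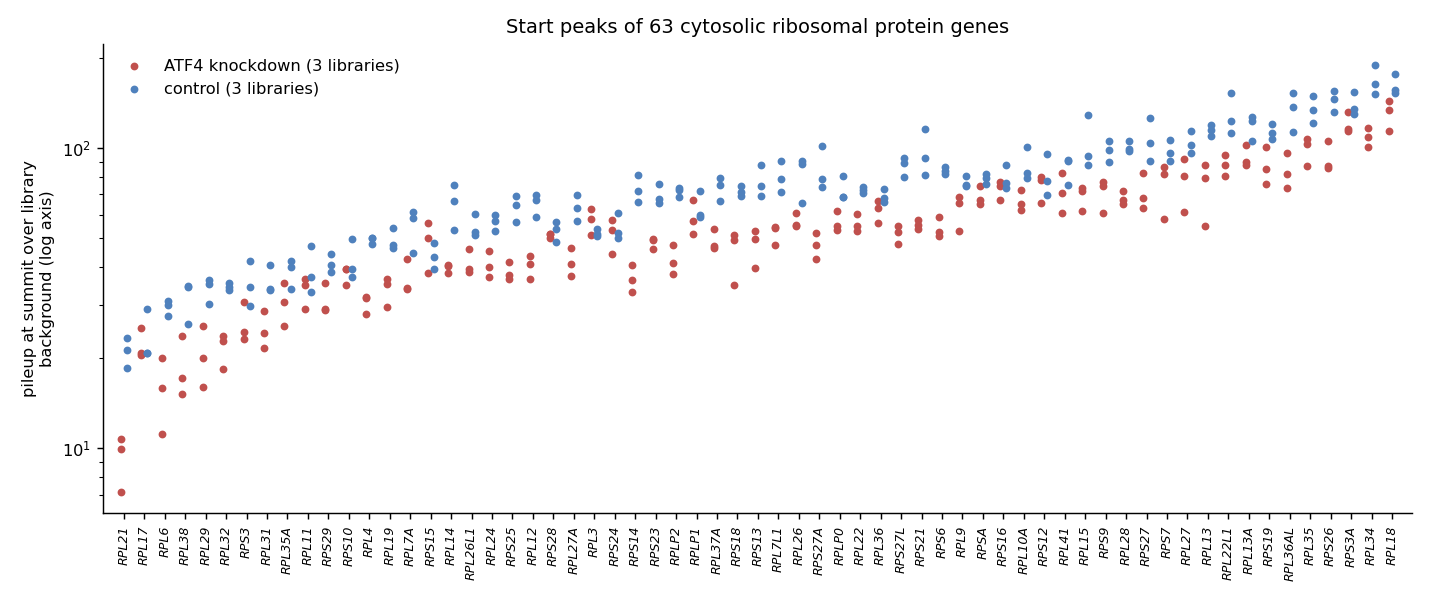
Height of the start peak, the pileup at the summit over the background pileup of the library (log axis), for 63 cytosolic ribosomal protein genes ordered by median height, with a point per library. ATF4 knockdown libraries (red) lie left of control libraries (blue) at each gene, and all 3 lie below them in 48 of the 63 genes.

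RPL21 had the lowest ratio of heights, 0.441. Its start peak measured 7.17, 10.7 and 9.96 in knockdown libraries 1 to 3 and 21.3, 23.3 and 18.5 in control libraries 1 to 3. The pileups behind these values were only 18, 23 and 25 tags in the knockdown libraries and 68, 65 and 65 in the control libraries. The groups did not overlap, and the log2 height differed by −1.20 (SE 0.25, limma adjusted p = 3.04e-05). Over the median of all start peaks the difference was −0.77 (limma adjusted p = 0.00903). Among the 10906 genes this ratio was at percentile 0.578.

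RPS14, a small-subunit protein whose loss on chromosome 5 marks a myelodysplastic syndrome, came next, with a ratio of 0.502. It measured 33.1, 36.3 and 40.6 in the knockdown libraries and 65.8, 81.4 and 71.9 in the control libraries, and its fold over local background was 12.3, 12.5 and 13.0 in the knockdown and 18.0, 18.5 and 17.3 in the control libraries. On both measures all knockdown libraries lay below all control libraries. In knockdown library 1 the summit lay 293 bases before the nearest annotated start, against 12 to 29 bases in the other libraries. The log2 height differed by −0.99 (SE 0.16, limma adjusted p = 2.08e-07), and by −0.57 over the median of all start peaks (limma adjusted p = 0.00064). RPL6 had 15.6 ± 4.39 in the knockdown and 29.6 ± 1.75 in the control libraries, a ratio of 0.529. Its pileups were only 28, 34 and 50 tags in the knockdown and 96, 77 and 109 in the control libraries. Within 1 kb of either end of RPL6, the strongest peak measured 31.9, 27.4 and 42.2 in the knockdown libraries. That peak measured 33.2, 39.1 and 32.4 in the control libraries, a ratio of 0.970 with overlap. RPS27A, which encodes a fusion of ubiquitin with a small-subunit protein, had 47.4 ± 4.78 in the knockdown and 85.0 ± 14.7 in the control libraries (ratio 0.558). RPS21 had 55.6 ± 2.01 in the knockdown and 96.5 ± 17.4 in the control libraries (ratio 0.577).

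In RPL3 and RPS15 the mean height was not lower in the knockdown libraries. RPL3, which lies close to the peptidyl transferase centre, measured 51.4, 62.8 and 58.2 in the knockdown and 50.8, 53.8 and 51.7 in the control libraries, a ratio of 1.10. RPS15 measured 38.2, 56.3 and 50.2 in the knockdown and 43.3, 48.4 and 39.5 in the control libraries, also a ratio of 1.10. The groups overlapped in both genes, with limma adjusted p = 0.446 for RPL3 and 0.489 for RPS15. Both were called higher over the median of all start peaks, by 0.56 for RPL3 (limma adjusted p = 0.000527) and 0.56 for RPS15 (limma adjusted p = 0.00161). Both ranked higher in the knockdown lists, RPL3 at percentiles 44.8 to 51.8 in the knockdown and 22.2 to 27.7 in the control lists. RPS28, RPS24 and RPL17 had ratios of 0.967, 0.954 and 0.941. The 2 genes with an ATF4 and CEBP element were near the median, with a ratio of 0.687 at RPL31 and 0.697 at RPS23.

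**Figure D3:**
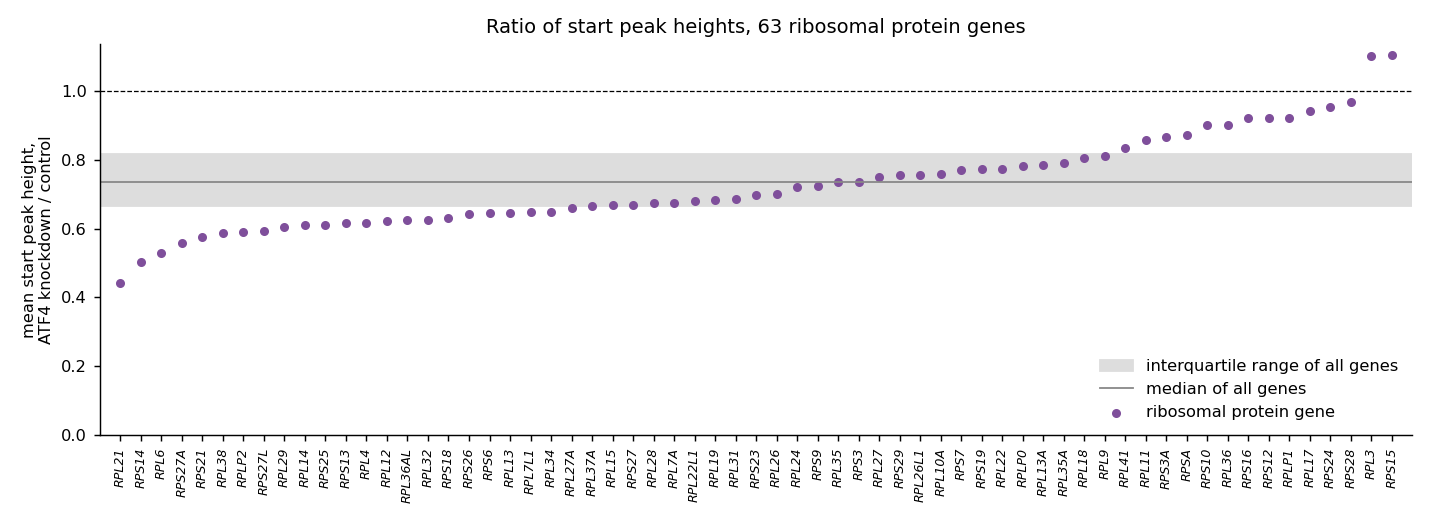
Mean start peak height in ATF4 knockdown over that in control libraries for 63 cytosolic ribosomal protein genes, ordered by the ratio. The grey line and band are the median (0.737) and the interquartile range (0.666 to 0.818) of all 10906 genes with a start peak in every library, and RPL3 and RPS15 lie above 1.

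The stalk proteins, which recruit translation factors to the large subunit, were lower in the knockdown libraries to unequal degrees. Start peaks lower in all knockdown than in all control libraries were found for 67.8% of all genes. Groups that lay apart are thus not particular to the genes that follow. RPLP0, the stalk base, measured 53.4, 61.9 and 55.0 in the knockdown libraries and 68.7, 80.6 and 68.5 in the control libraries. RPLP2 measured 41.4, 38.1 and 47.4 in the knockdown and 72.4, 73.8 and 68.5 in the control libraries, so that the groups lay apart in both. RPLP1 measured 51.8, 57.2 and 66.9 in the knockdown and 58.9, 72.0 and 59.9 in the control libraries, and its groups overlapped. RPSA, a small-subunit protein also known as a laminin receptor, measured 67.3, 74.9 and 64.9 in the knockdown and 79.3, 81.7 and 76.1 in the control libraries, without overlap.

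RPL5 and RPL11 bind 5S ribosomal RNA and, outside the ribosome, the p53 regulator MDM2. RPL11 measured 29.1, 36.7 and 35.1 in the knockdown and 33.2, 47.3 and 37.2 in the control libraries, with overlap. RPL5 was absent from the promoter table, and its strongest peak within 1 kb of either gene end measured 57.0, 54.4 and 45.4 in the knockdown and 58.6, 101 and 58.2 in the control libraries. The groups did not overlap, and control library 2 stood above the rest. RPS19, the gene first linked to Diamond-Blackfan anaemia, a failure of red cell production, measured 76.1, 85.1 and 101 in the knockdown and 107, 120 and 112 in the control libraries, also without overlap. RPS6, a substrate of the S6 kinases, measured 51.0, 59.1 and 52.6 in the knockdown and 81.8, 86.7 and 84.1 in the control libraries, again apart.

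Among the paralogs, RPL22L1 measured 94.4, 80.5 and 88.0 in the knockdown and 123, 152 and 112 in the control libraries. Its partner RPL22 was lower in every library, at 52.99, 54.9 and 60.2 in the knockdown and 70.5, 74.2 and 72.4 in the control libraries. RPL26L1 measured 38.6, 46.0 and 39.4 in the knockdown and 52.7, 60.2 and 51.1 in the control libraries, below RPL26 in each library. All 4 genes had the knockdown libraries below the control libraries, as had 67.8% of all genes.

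RPL26 measured 55.0, 60.9 and 55.4 in the knockdown and 90.6, 88.2 and 65.3 in the control libraries. RPS27L, a p53 target, measured 47.8, 52.6 and 55.0 in the knockdown and 89.0, 92.8 and 80.1 in the control libraries, and RPS27 was above it in every library, at 63.3, 68.4 and 82.5 in the knockdown and 90.3, 125 and 104 in the control libraries. In both genes the groups lay apart. RPL36AL, the autosomal paralog of RPL36A, measured 73.3, 96.3 and 82.1 in the knockdown and 137, 153 and 113 in the control libraries. RPL7L1 measured 54.6, 54.0 and 47.4 in the knockdown and 71.2, 90.3 and 79.0 in the control libraries.

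RPL39L, a paralog of RPL39 known for expression in testis, had no entry in the promoter table. Its strongest peak at either gene end measured 86.5, 105 and 93.6 in the knockdown and 141, 133 and 126 in the control libraries, with no overlap. The partner RPL7 measured 133, 154 and 135 in the knockdown and 170, 185 and 156 in the control libraries by the same rule, also apart. RPL3L, the striated muscle paralog of RPL3, measured 75.7, 79.5 and 73.7 in the knockdown and 63.3, 105 and 81.5 in the control libraries. Its groups overlapped. Except in control library 1, the peak measured was also the strongest within 10 kb of RPL3L, and it lay nearest an end of MSRB1. With either gene end in place of the start, 79 of the 81 genes had a peak in all libraries (97.5%, against 66% of all genes). Of these, 77 had a ratio under 1 (97.5%, against 94.5% of all genes with such a peak), the exceptions being RPL3 and RPS15, and the median was 0.720 (0.735 for all genes).

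Covered length, the bases under listed peaks within 10 kb of either gene end, passed the test at no ribosomal protein gene. It was scaled to the mean library total and compared as log2(value + 200 bp) with limma over 18606 genes, 80 of the 81 single genes among them. RPL10L had covered bases in only 2 libraries and was not tested. At a Benjamini-Hochberg adjusted p of 0.05, 0 of 80 ribosomal protein genes were called in either direction, against 0% of the 18606 genes for lower and 0% for higher values. At an unadjusted p under 0.05, 2 were lower in the knockdown libraries (2.5%, against 9.08% of all genes) and 4 were higher (5%, against 4.89%). Of any size, 39 of 80 differences were lower (48.8%, against 54.9%) and 41 higher (51.2%, against 45.1%). The median difference was 0.01 on the log2 scale, against −0.02 over all genes, and was 0.02 in the large and −0.02 in the small subunit.

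On simulated data of this design, the fit found 7.5% of genes changed by 0.5 on the log2 scale and 73% of those changed by 1, with 200 of 18606 genes changed in each run. The differences here ran from −0.43 to 0.47, so that most differences of this size would not be called. Summed over the 80 genes, peaks covered 170 ± 4.24 kb in the knockdown and 185 ± 6.51 kb in the control libraries (SD, n = 3 each). After scaling to the library total the sums were 178 ± 3.16 kb in the knockdown and 177 ± 11.1 kb in the control libraries, and overlapped. Without that scaling, 2 ribosomal protein genes were called, RPS14 (−0.51, limma adjusted p = 0.0435) and RPL39L (−0.54, limma adjusted p = 0.0491), both lower in the knockdown libraries (2.5%, against 3.49% of all genes). With peaks of −log10 q of at least 5 only, 31 were called, all higher in the knockdown libraries (38.8%, against 30.7% of all genes), and 0 lower (against 3.17%). The direction of the calls thus differed between these settings.

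**Figure D4:**
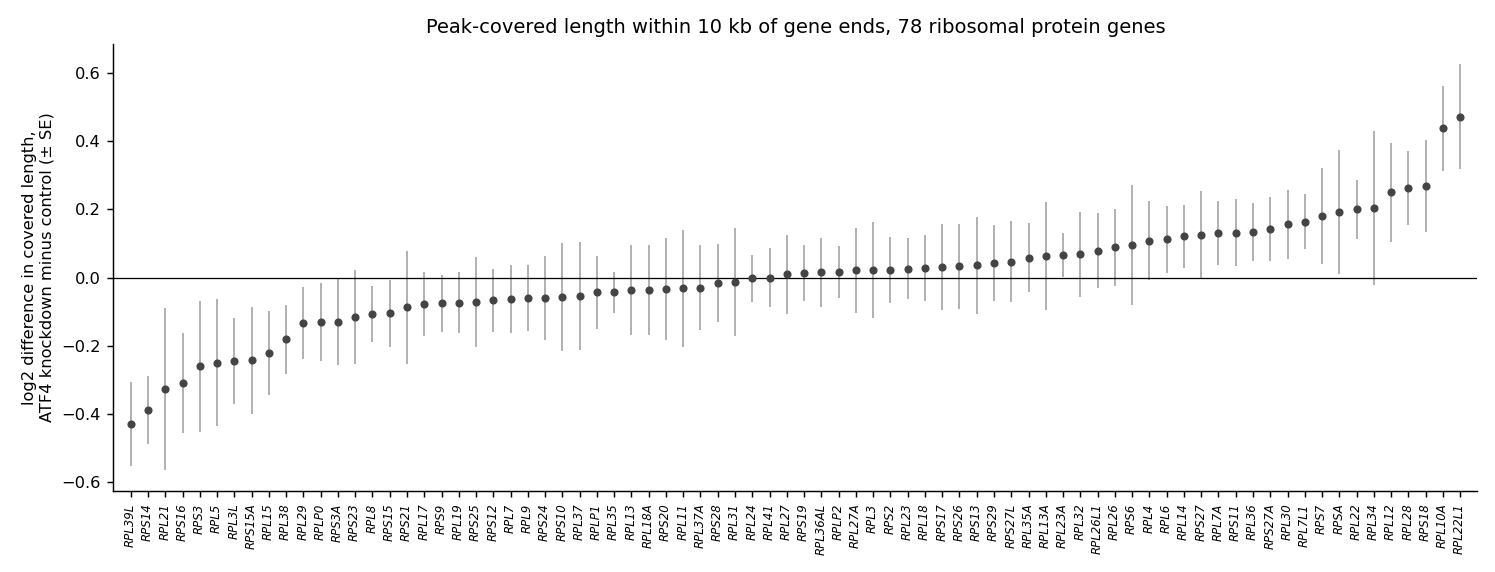
Log2 difference in scaled covered length within 10 kb of gene ends, ATF4 knockdown minus control, with its limma standard error, for 78 of the 80 cytosolic ribosomal protein genes tested, in order of size. Differences run from −0.43 (RPL39L) to 0.47 (RPL22L1) and no gene passed the adjusted threshold.

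RPS14 had the smallest p of the ribosomal protein genes. Scaled covered length was 1839, 1938 and 2156 bp in knockdown libraries 1 to 3 and 2836, 2454 and 2658 bp in control libraries 1 to 3, a difference of −0.39 (SE 0.10, limma adjusted p = 0.164) with no overlap. The region over its start (chr5:150448879-150450236, hg38, over an end of the gene), which holds the promoter printed above, was covered over 855, 881 and 914 bp in the knockdown and 1345, 1019 and 1204 bp in the control libraries, before scaling. A further region past the other end of the gene (chr5:150435930-150436724) was covered over 300, 380 and 474 bp in the knockdown and 606, 599 and 795 bp in the control libraries. Another (chr5:150439090-150439478) was covered over 389 and 341 bp in control libraries 1 and 2 and was listed in no other library. One more region (chr5:150458733-150459442) was covered over 605, 577 and 686 bp in the knockdown and 680, 638 and 684 bp in the control libraries, with overlap. RPS14 was thus lower in the knockdown libraries in the height of its start peak and in the bases covered at its start and at a region past its other end.

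RPL39L was covered over 1721, 1307 and 1421 bp in the knockdown and 1902, 2088 and 2185 bp in the control libraries, a difference of −0.43 (SE 0.12, limma adjusted p = 0.190) with no overlap. Its main region (chr3:187139067-187139978), over an annotated end, was equally wide in both groups, at 873, 907 and 898 bp in the knockdown and 900, 895 and 900 bp in the control libraries. Most of the difference lay in a pair of other regions. Inside the gene (chr3:187130435-187131194), 585, 332 and 469 bp were covered in the knockdown and 573, 708 and 726 bp in the control libraries. Outside it (chr3:187113031-187113582), 189, 0 and 0 bp were covered in the knockdown and 552, 331 and 429 bp in the control libraries. A region of 276 bp inside the gene (chr3:187125349-187125624) was listed in control library 2 alone, and one of 151 bp outside it (chr3:187145548-187145698) in control library 3 alone. Within 2 kb of the gene ends the difference was 0.10, the reverse of that within 10 kb.

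RPL10A, a large-subunit protein, was covered over 2765, 2205 and 2312 bp in the knockdown and 1917, 1495 and 1806 bp in the control libraries, a difference of 0.44 (SE 0.13, limma adjusted p = 0.190) with no overlap. The region over its start (chr6:35467910-35469192) was covered over 1263, 1007 and 992 bp in the knockdown and 1230, 1210 and 1216 bp in the control libraries. The excess lay outside the gene (chr6:35473914-35475067), with 970, 638 and 872 bp in the knockdown and 335, 150 and 0 bp in the control libraries. Peaks there were weak, with a highest −log10 q of 5.43, 1.65 and 7.82 in the knockdown libraries and 2.04 and 1.24 in control libraries 1 and 2. Within 2 kb of the gene ends the difference was −0.04.

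RPL22L1 was covered over 1553, 1187 and 1643 bp in the knockdown and 896, 1148 and 936 bp in the control libraries, a difference of 0.47 (SE 0.15, limma adjusted p = 0.227) with no overlap. Its start region (chr3:170869655-170870618), the TATAAA-bearing promoter printed above, was covered over 873, 865 and 900 bp in the knockdown and 954, 900 and 945 bp in the control libraries. A weak region outside the gene (chr3:170864355-170864764) was covered over 259, 261 and 255 bp in the knockdown libraries and listed in no control library, with −log10 q of 2.37, 1.23 and 1.54. In both RPL10A and RPL22L1 the excess was in weak regions away from the start, while the start peak itself was lower in every knockdown than in every control library.

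**Figure D5:**
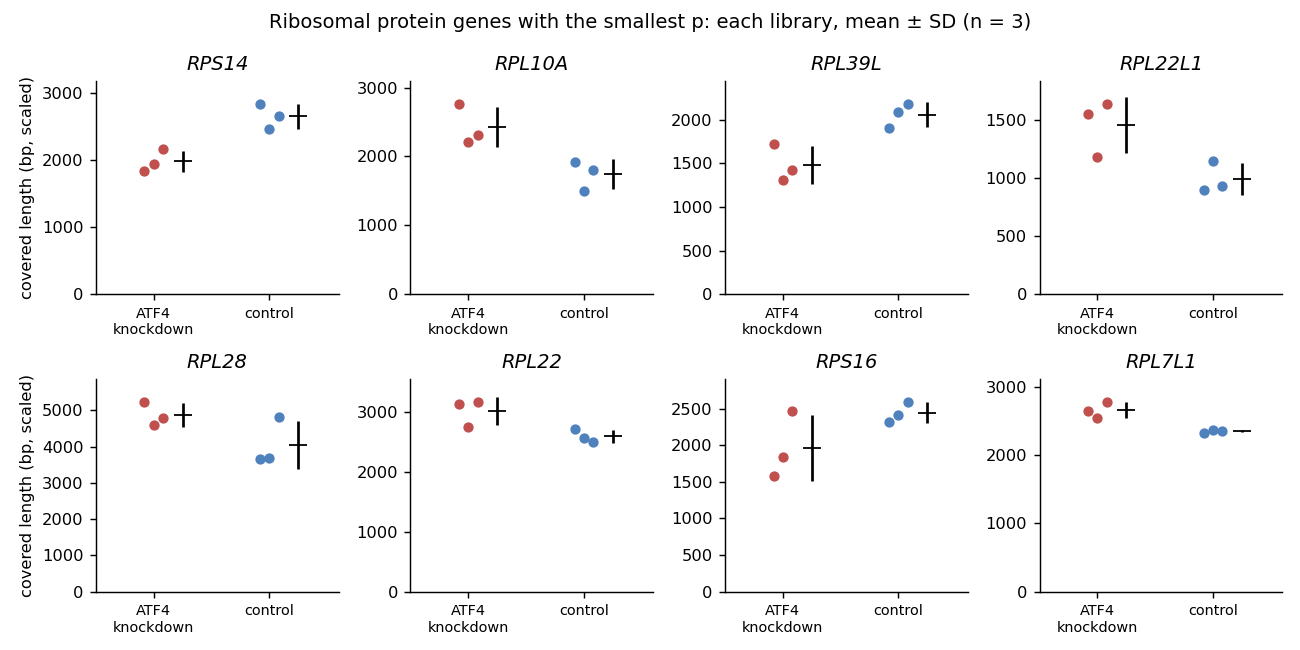
Scaled covered length within 10 kb of gene ends in each library, with mean ± SD (n = 3), for the 8 cytosolic ribosomal protein genes with the smallest limma p, ATF4 knockdown left of control. The groups lie apart in RPS14 and RPL39L (knockdown lower) and in RPL10A, RPL22L1, RPL22 and RPL7L1 (knockdown higher), and overlap in RPL28 and RPS16.

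RPL28 was covered over 5246, 4587 and 4791 bp in the knockdown and 3656, 3685 and 4818 bp in the control libraries (difference 0.26, SE 0.11, limma adjusted p = 0.326), with overlap through control library 3. RPL22, a large-subunit protein that also binds viral RNA, was covered over 3124, 2737 and 3166 bp in the knockdown and 2709, 2566 and 2490 bp in the control libraries (0.20, SE 0.09, limma adjusted p = 0.351). RPL7L1 was covered over 2645, 2549 and 2786 bp in the knockdown and 2331, 2364 and 2359 bp in the control libraries (0.16, SE 0.08, limma adjusted p = 0.418). RPL22 and RPL7L1 were thus apart between groups, though by little. RPS16 was covered over 1585, 1834 and 2467 bp in the knockdown and 2322, 2413 and 2595 bp in the control libraries (−0.31, SE 0.15, limma adjusted p = 0.397), with overlap, and its difference was 0.11 with peaks of −log10 q of at least 5 only.

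All knockdown libraries lay below all control libraries in covered length for 3 of the 80 genes, RPS14, RPL39L and RPL15 (3.75%, against 11.9% of all genes). All lay above for 5, RPL10A, RPL22L1, RPL22, RPL7L1 and RPL30 (6.25%, against 7.69%). The most covered genes were RPL23A, RPL28, RPL35 and RPL19, with means over the 6 libraries of 4904, 4464, 4459 and 4436 bp. RPL23A, which lies near the exit of the peptide tunnel, was covered over 5015, 4965 and 5072 bp in the knockdown and 4623, 4586 and 5165 bp in the control libraries, with overlap. The least covered of those tested were RPL11 with 897, RPL5 with 991, RPL21 with 1003 and RPS23 with 1024 bp, near the width of a single start peak. The median was 2135 bp, against 1890 bp over all genes.

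Among the genes of set roles, the covered-length differences were small. RPLP0 differed by −0.13 (SE 0.11), RPLP1 by −0.04 (SE 0.11) and RPLP2 by 0.02 (SE 0.08), with overlap in each. RPSA differed by 0.19 (SE 0.18), RPL5 by −0.25 (SE 0.19), RPL11 by −0.03 (SE 0.17) and RPS19 by 0.01 (SE 0.08), and the limma adjusted p was 0.602 or more for all 7. The paralog RPL26L1 was at 0.08, RPL36AL at 0.02 and RPS27L at 0.05, beside RPL26 at 0.09 and RPS27 at 0.13. RPL3L was at −0.24 (SE 0.13, limma adjusted p = 0.439) and RPL3 at 0.02.

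Regions listed in all 3 libraries of a group with −log10 q reaching 2, and in no library of the other group, lay within 10 kb of 4 ribosomal protein genes, all of them control-only (4.94%, against 5.85% of all genes). Knockdown-only regions lay near 0 (against 0.275%). Inside RPL37, the region chr5:40834446-40834617 lay 605 bp from a gene end and had pileups of 46, 48 and 59 tags in the control libraries. Near RPL41, chr12:56119489-56119656 had 102, 120 and 119 tags at a fold of only 2.33, 2.61 and 2.29 over local background, so that it lay in a stretch of high background. The region near RPLP0 (chr12:120191142-120191413) had 32, 41 and 40 tags, and that inside RPS3 (chr11:75407943-75408343) had 16, 13 and 20 tags. The region in RPS3, a small-subunit protein at the messenger RNA entry, thus had the lowest pileup of the 4, with the highest fold over local background, 4.06, 3.69 and 4.64.

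The other genes of ribosome production gave no calls either, 0 in each of the lists that follow. Of 77 mitochondrial ribosomal protein genes, 46 were lower and 31 higher in the knockdown libraries (median −0.03), with MRPL14 at −0.35 (SE 0.09, limma adjusted p = 0.163) and MRPS25 at −0.37 (SE 0.10, limma adjusted p = 0.182). Of 23 translation factors and partners whose messages also begin with a TOP motif, 13 were lower and 10 higher (median −0.08). Elongation factor gene EEF2 was covered over 2753, 2591 and 2582 bp in the knockdown and 3027, 3340 and 3276 bp in the control libraries (−0.26, SE 0.08, limma adjusted p = 0.200), without overlap. EEF1D, of the same elongation machinery, differed by −0.24 (SE 0.08, limma adjusted p = 0.214).

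Of the 4 X-linked ribosomal protein genes, 3 were lower and 1 higher, with RPS4X at −0.25 (SE 0.13, limma adjusted p = 0.438) and RPL10 at 0.08. FAU, which encodes a ribosomal protein fused to a ubiquitin-like protein, differed by −0.06. Of 15 RNA polymerase I and rDNA factors, 9 were lower and 6 higher (POLR1D 0.24, SE 0.10; UBTF −0.10, SE 0.06). Of 37 ribosome assembly factors tested, 17 were lower and 20 higher (GTPBP4 0.36, SE 0.13; WDR12 0.17, SE 0.08). Of 11 genes that control TOP messages, 5 were lower and 6 higher, with the S6 kinase gene RPS6KB2 at −0.25 (SE 0.07).

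Among 8 promoter factors named for these genes, 2 were lower and 6 higher, with SP1 at −0.29 (limma adjusted p = 0.139) and ZBTB33 at 0.20. Of the 8 genes of the 5S RNP and p53 axis, 6 were lower and 2 higher, with MDM2 at 0.32 and CDKN1A at −0.31. Of 18 Diamond-Blackfan anaemia genes, all of them ribosomal protein genes, 8 were lower and 10 higher (median 0.01), with RPL5 at −0.25 and RPL15 at −0.22. List medians lay between −0.17 and 0.07, against −0.02 over all genes.

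Over the whole series, the lists held 220250 to 222779 summits in knockdown and 225832 to 238246 in control libraries, in 163937 to 171685 separate regions in knockdown and 135070 to 161433 in control libraries. Knockdown regions were more and narrower, with a median width of 247 to 262 bp in knockdown and 302 to 347 bp in control libraries. The regions covered 62.98 to 63.9 Mb in knockdown and 67.0 to 70.7 Mb in control libraries. The start peak of ATF4, the gene targeted, had heights of 75.3, 91.6 and 111 in the knockdown and 125, 149 and 116 in the control libraries, a ratio of 0.711, close to the median of all genes. An open start does not report the level of ATF4 RNA or protein, so this is no check of the knockdown. A start peak of −log10 q of at least 10 in all libraries was found for 64.2% of all genes with a start in the promoter table. Of 8 plasma cell markers with such a start, 6 had one (SDC1, CD38, MZB1, IRF4, PRDM1 and XBP1). So had 1 of 2 B cell markers, 1 of 4 T and NK cell markers, 0 of 3 myeloid and 0 of 1 epithelial and stromal markers. Peaks near the 10 plasma cell markers summed to 35.4 to 36.0 kb in the knockdown and 41.5 to 44.4 kb in the control libraries before scaling. The sums were 7.20 to 8.79 kb in the knockdown and 9.14 to 10.2 kb in the control libraries for the 6 T and NK cell markers, and 6.10 to 7.22 kb in the knockdown and 7.64 to 7.79 kb in the control libraries for the 5 myeloid markers. They overlapped between groups for the 5 B cell markers, at 10.1 to 12.1 kb in the knockdown and 11.53 to 12.8 kb in the control libraries. They also overlapped for the 5 epithelial and stromal markers, at 7.68 to 9.78 kb in the knockdown and 9.04 to 10.6 kb in the control libraries. The part of these sums in the results above was not tested.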

How the data were processed

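ATAC-seq peak lists of 3 ATF4 knockdown and 3 control libraries of KMS-11 cells were used, 1 list per library. The submitters' processing notes name MACS2 and hg38. Not given in the sources used here are the aligner, read filters, any transposase shift and the settings of the caller. As deposited, fold is the ratio of summit pileup over local background (1 added to both). The deposited −log10 p and −log10 q values hold within a library. The deposited score was not used in any result.

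Bases under the union of peaks within 10 kb of either end of each protein-coding gene (RefSeq, GRCh38.p14) were scaled to the mean library total and transformed as log2(value + 200 bp). For genes with covered bases in at least 3 libraries, groups were compared in limma 3.58.1 (R 4.3.3; eBayes, trend and robust, Benjamini-Hochberg adjusted p of at most 0.05), after a test on simulated data. This scale understates differences where few bases are covered. Pileups were recovered as the whole number whose Poisson p at the implied background matched the deposited −log10 p within 0.01, which 100% of summits gave. Background pileup is the most common local value of a library. Log2 heights were compared in limma with the same settings, which on simulated data found 0% of genes changed by 0.5 and 85.5% of those changed by 1 (200 of 10906 genes). These shares do not describe the test on the data, where 65.6% of genes were called lower. There, smaller differences also passed, such as RPL18 at −0.31 (limma adjusted p = 0.0453). Gene positions came from annotated ends; no strand was used for covered length. Start peaks and motifs used the 64 genes in the RefSeq promoter table. Start peaks were taken near any start that it gives for a gene, and motifs from the promoter nearest the outer end of the gene. Exons and introns were not told apart.

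The members, gene lists, markers, motifs and named genes were chosen with earlier results of these data known. Genes named with values were the 8 with the smallest p, the 4 most and least covered, the 4 with the highest and lowest −log10 q, the paralogs, RPL5, RPL11, RPL22, RPS14, RPS19, the stalk genes, RPSA and, in each list, the 2 with the smallest p. A few genes chosen by this rule are not reported here. The others were named for start peak height or group-only regions after their values were seen. Alternatives changed the scaling, the −log10 q minimum, list length, pseudocount, filter, window, gene end, variance model, replicate block and libraries. For heights the tests and alternatives were added after seeing the data.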

Additional observations from a re-analysis of the deposited data

How the results depend on the processing

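The number of protein-coding genes called for covered length was 0 in the fit described above, with 1689 lower and 910 higher at an unadjusted p under 0.05. It was 693 without scaling (649 lower, 44 higher), 1 with peaks of −log10 q of at least 2, 5830 with −log10 q of at least 5 (545 lower, 5285 higher), 6 with a pseudocount of 1000 bp, 2 within 2 kb, 8 with only the gene end with more covered bases, and 76 without the trend and robust settings. It was 0 under each other setting and without any 1 library (0 to 0). The number of ribosomal protein genes called was 2 without scaling, 31 with −log10 q of at least 5, and 0 under each other setting, again 0 to 0 without any 1 library. Their median difference was −0.11 without scaling (all genes −0.14), 0.13 with −log10 q of at least 2 (0.08), 0.27 with at least 5 (0.19), 0.076 with lists of equal length (0.04), and −0.02 to 0.04 without any 1 library. The 80 genes with a peak in all libraries became 79 within 2 kb and at a −log10 q of at least 10. For start peak heights, the median ratio was 0.528 with no scaling of pileups, 0.901 with the deposited fold and 0.939 over the median of all start peaks, and 0.676 to 0.743 without any 1 library, the highest without control library 2. The genes lower in mean height numbered 63 with no scaling, 49 with the fold and 37 over the median of all start peaks, and 57 to 61 without any 1 library. The 47 called for height, all lower, became 61 lower with no scaling (96.8%, against 96% of all genes). With the fold 17 were called (16 lower, 1 higher), and over the median of all start peaks 13 (7 lower, 6 higher). Without any 1 library 33 to 44 were called, all lower (52.4% to 69.8%, against 46.3% to 69.2% of all genes). RPS16 differed by 0.0011 at −log10 q of at least 2 and 0.11 at 5 or more, and within 2 kb RPL10A differed by −0.038 and RPL39L by 0.10. The cause of these changes was not tested. Only at −log10 q of at least 5 did RPL22L1, RPL28, RPL22 and RPL7L1 pass the threshold, as higher in the knockdown libraries. ATF4 also passed at that setting alone, as lower in the knockdown libraries. Over 25 other genes, 391 of 449 values moved by less than the replicate spread.

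With the replicate number as a block, 0 genes and 0 ribosomal protein genes were called for covered length, with a median difference of 0.01. For height, 47 of 63 ribosomal protein genes were then called lower (74.6%, against 66.7% of all genes). Whether the numbers pair the samples is not stated. Deviations of same-numbered libraries in scaled covered length correlated by 0.016, 0.001 and 0.025. These values cannot decide it, since differences in the library total had been scaled out and heights were not compared in this way. Background pileup ran from 2.15 to 2.51 in knockdown and 2.79 to 3.52 in control libraries, and its part in which peaks were listed was not tested. Where RPL10L has no peak this says only that none was listed.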
